A study of Mus musculus with 8 samples.

Results

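The genes of cholesterol and fatty acid synthesis were followed through RNA-Seq of mouse tubuloid cultures, as 37 gene symbols among the 24063 symbols of the deposited transcript tables. The list holds 18 genes for the steps from acetyl-CoA to cholesterol, 9 genes that sense sterol or handle its uptake and transport, and 10 genes of fatty acid synthesis and desaturation. The list was chosen from earlier results of the same contrast between GDNF and control cultures, in which *Msmo1* and *Cyp51* stood out. The members' values in that contrast are therefore given as a description, and their p-values served to choose which members are shown in full, not as a test of them. All 37 members passed the filter on low counts.

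Tubuloids are three-dimensional epithelial structures grown from tubule fragments of postnatal mouse kidney in Matrigel, a basement membrane extract. All 8 cultures carried the genotype Pkd2fl/fl Pax8rtTA TetOCre mTmG, in which a *Pax8*-driven transactivator can switch on Cre to delete floxed *Pkd2*, and no inducer was given in this experiment. The labels give a mouse age of postnatal day 7 to 10 and harvest on culture day 7 for every culture. The paper's methods differ on age and give postnatal day 4 to 7 for the kidneys used. The 4 GDNF cultures (numbers 6, 12, 17 and 22) received a 24 h pulse of glial cell line-derived neurotrophic factor, a ligand of the Ret receptor that drives branching of the ureteric bud, and the 4 control cultures (numbers 3, 7, 14 and 21) did not. The paper places the harvest 6 days after the pulse, so the values describe that later state. The fragments came from whole kidney, so cultures can hold cells other than epithelium. The labels do not say whether cultures of a group came from separate mice, and the spread within a group may be partly technical. The paper divides its samples between flow cell lanes, and the labels do not name the lane of each culture. Whether lane and group coincide is therefore not known.

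Cells make cholesterol from acetyl-CoA through mevalonate, isoprenoids, squalene and lanosterol, and the same acetyl-CoA feeds fatty acid synthesis. Transcription of both branches is driven by the sterol regulatory element-binding proteins, encoded by *Srebf1* and *Srebf2*. The escort protein Scap carries them from the endoplasmic reticulum to the Golgi for cleavage, and the Insig proteins hold that complex back when sterol is plentiful. Srebf2 is best known for the sterol branch and Srebf1 for the fatty acid branch.

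Total counts ranged from 72991721 to 97490625 per culture. Levels below are in CPM, read counts scaled to a common library size, with TMM factors that correct that size for composition, unless TPM is named. The TMM factor was 0.790 for control culture 3 and 0.963 to 0.982 for the other controls, against 1.07 to 1.11 for the GDNF cultures. With library size as the sole scaling, the median log2 fold change of all 16557 genes tested moved from 0.03 to 0.25, so each class is also given relative to that median. *Cdh1*, *Epcam*, *Pax8* and *Cdh16*, which mark kidney epithelium, were detected in all 8 cultures and summed to 217 to 889 CPM in the controls and 352 to 1004 CPM in the GDNF cultures. Of the 5 proximal tubule markers, 4 were tested and summed to 9.60 to 13.7 CPM in the controls and 13.0 to 15.6 CPM in the GDNF cultures, most of it the glucose transporter gene *Slc5a2*, with the endocytic receptor gene *Lrp2* at or below 0.970 CPM.

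The promoters are shown first because sterol step genes are textbook targets of a shared set of factors. RefSeq promoters (GRCm38.p6, 250 bases before to 50 bases after the start) were held for 29 of the 37 members, and those of *Sqle*, *Scd2*, *Stard4*, *Npc1*, *Scd1*, *Fdps*, *Fads1* and *Fdft1* were not analysed here. The motifs searched, on both strands, were the sterol regulatory element TCACNCCAC, the E-box ATCACGTGA, the CCAAT box CCAAT, which NF-Y binds, and the GC box GGGCGG, which Sp1 binds. No motif is contained in another. The 250 bases before the start are printed below, 5′ to 3′ on the gene's strand, for the sterol step genes with the largest differences and a promoter in the table (*Msmo1*, *Idi1* and *Cyp51*), for *Hmgcs1*, which held the sterol regulatory element, and for *Acat2*, which held no CCAAT box. Capitals mark the CCAAT box in either orientation (reverse complement ATTGG) and the sterol regulatory element in the exact letters searched.
Msmo1 (chr8:64733579-64733828, minus strand): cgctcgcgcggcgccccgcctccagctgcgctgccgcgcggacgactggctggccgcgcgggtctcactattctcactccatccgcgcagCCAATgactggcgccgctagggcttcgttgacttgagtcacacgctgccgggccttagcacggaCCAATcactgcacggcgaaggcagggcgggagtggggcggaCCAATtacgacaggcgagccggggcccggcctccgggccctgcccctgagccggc
Idi1 (chr13:8885356-8885605, plus strand): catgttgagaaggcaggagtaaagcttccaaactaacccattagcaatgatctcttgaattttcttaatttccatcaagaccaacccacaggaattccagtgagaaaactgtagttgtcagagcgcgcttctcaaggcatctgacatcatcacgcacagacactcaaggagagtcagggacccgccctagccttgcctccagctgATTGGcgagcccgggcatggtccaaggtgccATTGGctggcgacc
Cyp51 (chr5:4104698-4104947, minus strand): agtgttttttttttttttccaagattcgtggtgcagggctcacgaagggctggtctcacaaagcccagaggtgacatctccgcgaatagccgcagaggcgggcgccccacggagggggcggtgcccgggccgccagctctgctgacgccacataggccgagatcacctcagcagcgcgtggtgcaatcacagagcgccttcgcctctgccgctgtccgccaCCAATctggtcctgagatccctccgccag
Hmgcs1 (chr13:119690101-119690350, plus strand): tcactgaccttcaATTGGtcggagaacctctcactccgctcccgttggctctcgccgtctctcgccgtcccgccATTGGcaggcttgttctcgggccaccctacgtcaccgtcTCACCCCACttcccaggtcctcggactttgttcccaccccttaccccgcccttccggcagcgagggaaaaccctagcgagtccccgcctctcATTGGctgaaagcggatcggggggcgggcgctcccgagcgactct
Acat2 (chr17:12960726-12960975, minus strand): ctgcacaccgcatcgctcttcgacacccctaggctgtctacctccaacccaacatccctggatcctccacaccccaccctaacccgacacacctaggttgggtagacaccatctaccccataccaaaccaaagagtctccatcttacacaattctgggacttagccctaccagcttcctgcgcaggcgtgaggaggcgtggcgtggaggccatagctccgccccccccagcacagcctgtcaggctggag

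The CCAAT box was present in 14 of the 15 sterol step genes with a promoter, in 6 of 7 sensor and uptake genes and in 4 of 7 fatty acid genes. Among all 11928 tested genes with a promoter it was present in 42.3%, and in 37.4% of all 32851 promoters. *Msmo1* held 3 copies in its 250 bases, beginning 160, 96 and 55 bases before the start, while *Cyp51* held 1, beginning 29 bases before it. *Acat2* was the sterol step gene without a copy. The GC box was present in 14 of the 15 sterol step genes, in 7 of 7 sensor and uptake genes and in 4 of 7 fatty acid genes, against 64.9% of the tested genes with a promoter and 35.7% of all promoters. The sterol regulatory element, in the exact letters searched, was found in 1 of the 29 members, *Hmgcs1*, where it began 137 bases before the start. Those letters were in 1.44% of the tested genes with a promoter and in 1.24% of all promoters. Other forms of the element were not searched, so the other members may hold them. The E-box was found in 0 of the 29 members, in 0.595% of the tested genes with a promoter and in 0.317% of all promoters. These letters are a description of the window and do not show that a factor was bound.

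In the control cultures, levels between genes were compared in TPM, the authors' length-scaled abundance, of the transcript with the most counts. *Msmo1*, the sterol methyl oxidase, was highest at 172 ± 5.75 TPM (SD, n = 4). *Fdps*, which makes farnesyl diphosphate, followed at 131 ± 48.0 TPM. Next came *Npc2*, a lysosomal cholesterol carrier, at 71.9 ± 17.04 TPM. *Acly*, which makes cytosolic acetyl-CoA from citrate, was at 69.8 ± 14.9 TPM. *Scd2*, a stearoyl-CoA desaturase, was at 69.6 TPM, from 39.9 to 83.1. With TPM summed over transcripts the order differed: *Fdps* was first at 283 TPM, *Msmo1* remained at 172, and *Insig2* and *Acly* were at 167 and 140.1. The listed transcripts of *Fdps*, *Insig2* and *Acly* had similar counts, so these sums may hold the same reads more than once. With TPM rescaled over a single transcript per gene, *Msmo1* and *Fdps* again led, at 252 and 193 TPM.

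Of the 37 members, 28 were at 10 TPM or more in the control mean, among them 16 of the 18 sterol step genes, 7 of the 9 sensor and uptake genes and 5 of the 10 fatty acid genes. The median level was 21.4 TPM for the sterol step genes, 14.4 TPM for the sensor and uptake genes and 19.9 TPM for the fatty acid genes. Within the fatty acid class the spread was wide. *Acaca*, the carboxylase that makes malonyl-CoA, was the lowest member at 1.56 ± 0.654 TPM, and *Fasn*, the synthase that extends malonyl-CoA to palmitate, was at 6.88 ± 2.60 TPM. The lowest sterol step gene was *Dhcr7*, the reductase of a last step, at 5.003 ± 0.795 TPM. In the order of means, the ranges over the 4 controls overlapped for 35 of the 36 neighbouring pairs, and the pair whose ranges did not overlap was *Acss2* and *Acaca*. TPM keeps no correction for composition. Control culture 3 was the lowest of the controls for *Scd1*, *Scd2*, *Fasn* and *Acaca*, both on this scale and in CPM with TMM.

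**Figure D1:**
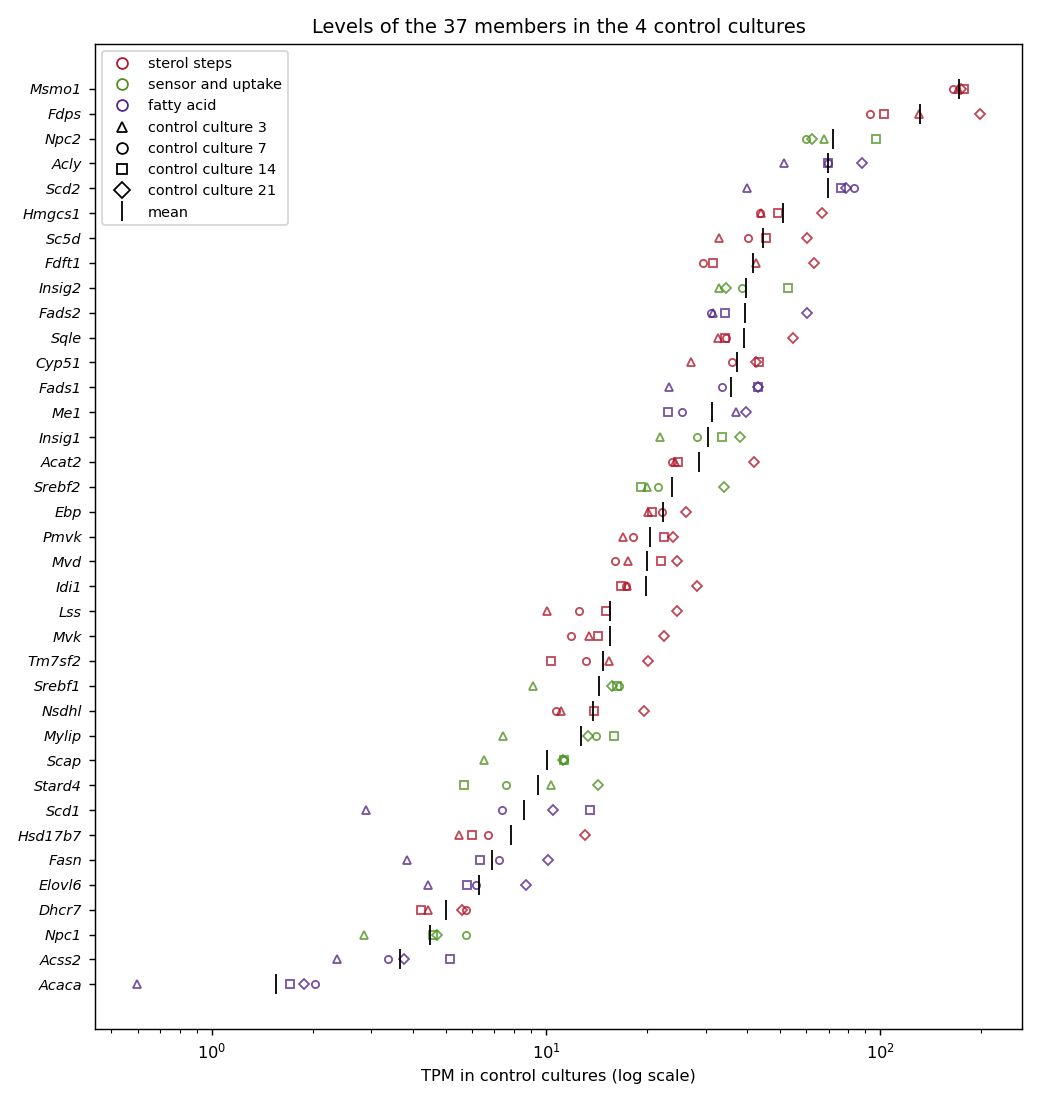
Level of each of the 37 members in the 4 control cultures, in TPM on a log axis, with genes ordered by their mean (vertical tick), symbols for the cultures and colours for the class. With the transcript of most counts, *Msmo1* and *Fdps* lead with means of 172 and 131 TPM, and *Acaca* is last with 1.56 TPM.

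After the GDNF pulse, 17 of the 18 sterol step genes had a lower mean than in the controls (15 with library size only, 17 with the transcript length trend as an offset, though not the same 17), while among the 9 sensor and uptake genes 5 were below 0 and 4 above (4 and 5 with library size only). Of the 10 fatty acid genes, 8 were above 0 and 2 below with TMM, and 7 of the 10 changed sign with that offset. No gene of the 16557 tested (0.0%) passed an adjusted p of 0.05 in edgeR (quasi-likelihood fit, Benjamini-Hochberg), nor any with limma-voom. At an unadjusted p of 0.05 or below, 2134 genes were lower (12.9%) and 1531 higher (9.25%). DESeq2 called 897 genes lower (7.65%) and 160 higher (1.36%) of 11724 with an adjusted p. Among the members, 14 were lower and 2 higher at that unadjusted p in edgeR. Without control culture 3 the 14 became 8, and without GDNF culture 22 they became 9. DESeq2 called 6 members, all lower, namely *Acat2*, *Idi1*, *Fdps*, *Cyp51*, *Msmo1* and *Nsdhl*. The groups did not overlap for 8 members, all lower in the GDNF cultures, beside 6.26% of all tested genes, and for 0 members in the other direction, beside 6.99%. Since the list was chosen from this contrast, nothing is read from these shares. With library size as the sole scaling, 3 members were lower and 4 higher without overlap, and the share over all tested genes is not given for it.

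The median log2 fold change was -0.48 over the 18 sterol step genes, -0.02 over the 9 sensor and uptake genes (0.21 with library size only) and 0.05 over the 10 fatty acid genes, beside 0.03 over all genes tested. Relative to the median of all genes, the sterol step median was -0.51 with TMM and -0.50 with library size only. For the fatty acid genes the same relative median was 0.02 with TMM and -0.0031 with library size only. Transcript lengths differed between the classes, with a median of 2233 bases for the sterol step genes, 4632 for the fatty acid genes and 2674 for all genes tested. When a trend of each culture with transcript length was taken out as an offset, the class medians were -0.46 for the sterol step genes, -0.23 for the sensor and uptake genes and -0.07 for the fatty acid genes, so that the fatty acid median changed sign, as it did without control culture 3 or 7, and the sensor and uptake median moved away from 0.

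**Figure D2:**
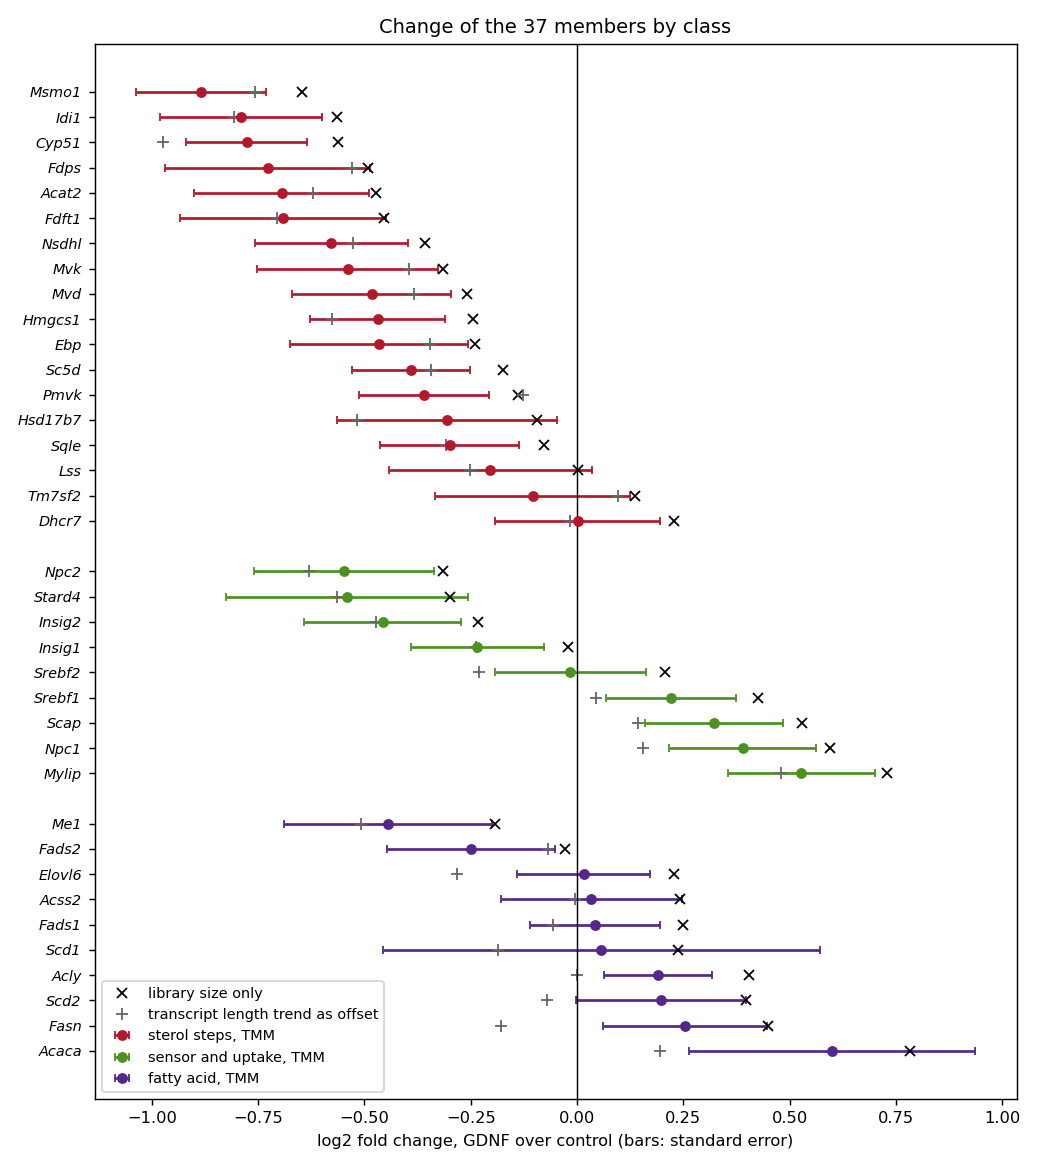
log2 fold change of each of the 37 members, GDNF over control, with its standard error (bars) from the TMM-scaled fit, grouped by class. Crosses give the value with library size only and plus signs that with the transcript length trend as an offset. With TMM, 17 of the 18 sterol step genes lie below 0, and 8 of the 10 fatty acid genes lie above it, of which 7 change sign with the length offset.

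The mevalonate branch starts with the joining of acetyl-CoA units and ends with farnesyl diphosphate. All 7 of its genes on the list had a lower mean in the GDNF cultures, and 4 of them, *Acat2*, *Hmgcs1*, *Idi1* and *Fdps*, did not overlap between groups. *Acat2* (chromosome 17, 12943042 to 12960725, GRCm38) encodes the cytosolic thiolase that joins the first pair of acetyl-CoA units. In the controls, *Acat2* was at 43.4 CPM in culture 3, 30.9 in culture 7, 32.0 in culture 14 and 50.3 in culture 21, and in the GDNF cultures at 24.4 in culture 6, 25.3 in culture 12, 28.9 in culture 17 and 18.1 in culture 22. Controls 3 and 21 were the highest, and the mean was 1.62-fold lower (log2 fold change -0.69, SE 0.21). Without these controls the log2 fold change was -0.44.

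*Hmgcs1* (chromosome 13, 119690351 to 119708260) encodes the synthase that adds the next acetyl-CoA unit. In the controls, *Hmgcs1* was at 269.8 CPM in culture 3, 195 in culture 7, 219 in culture 14 and 277 in culture 21, and in the GDNF cultures at 155 in culture 6, 192 in culture 12, 188 in culture 17 and 159 in culture 22. The lowest control and the highest GDNF culture were close, and the mean was 1.38-fold lower (log2 fold change -0.47, SE 0.16).

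*Idi1* (chromosome 13, 8885606 to 8892396), the isomerase that balances the isoprenoid building blocks, had the largest difference of the branch with TMM. In the controls, *Idi1* was at 43.0 CPM in culture 3, 30.9 in culture 7, 29.9 in culture 14 and 46.8 in culture 21, and in the GDNF cultures at 18.8 in culture 6, 20.1 in culture 12, 26.2 in culture 17 and 21.9 in culture 22. Every GDNF culture lay below the lowest control, and the mean was 1.73-fold lower (log2 fold change -0.79, SE 0.19). Its difference was -0.55 on the log2 scale without controls 3 and 21.

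*Fdps* (chromosome 3, 89093588 to 89101967), whose product also serves protein prenylation, was the most abundant gene of the branch in control TPM. In the controls, *Fdps* was at 325 CPM in culture 3, 167 in culture 7, 184 in culture 14 and 334.5 in culture 21, and in the GDNF cultures at 151 in culture 6, 166 in culture 12, 163 in culture 17 and 131 in culture 22. Controls 3 and 21 were far above the remaining cultures, the gap between control 7 and GDNF culture 12 was small, and the mean was 1.66-fold lower (log2 fold change -0.73, SE 0.24). Without these 2 controls the log2 fold change was -0.27.

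The 3 enzymes that turn mevalonate into isopentenyl diphosphate had overlapping groups. *Mvk*, the first kinase, had a log2 fold change of -0.54 (SE 0.21). *Pmvk*, the second kinase, was at -0.36 (SE 0.15) and *Mvd*, the decarboxylase, at -0.48 (SE 0.19). In each of the 3, GDNF culture 22 was the lowest of the 8 cultures.

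From squalene onward, 10 of 11 genes had a lower mean in the GDNF cultures and 4, *Cyp51*, *Msmo1*, *Nsdhl* and *Sc5d*, did not overlap. *Cyp51* (chromosome 5, 4080674 to 4104697) encodes the cytochrome P450 that demethylates lanosterol. In the controls, *Cyp51* was at 102 CPM in culture 3, 97.6 in culture 7, 117 in culture 14 and 107 in culture 21, and in the GDNF cultures at 51.6 in culture 6, 72.5 in culture 12, 63.4 in culture 17 and 59.7 in culture 22. The controls lay within 1.201-fold of each other, all above every GDNF culture, and the mean was 1.71-fold lower (log2 fold change -0.78, SE 0.14). Controls 3 and 21 were not set apart here, and without them the log2 fold change was -0.86.

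*Msmo1* (chromosome 8, 64718123 to 64733578) acts downstream, oxidising the paired methyl groups of the sterol ring. In the controls, *Msmo1* was at 266 CPM in culture 3, 187 in culture 7, 202 in culture 14 and 184 in culture 21, and in the GDNF cultures at 108 in culture 6, 122 in culture 12, 116 in culture 17 and 109 in culture 22. The GDNF cultures lay within 1.123-fold of each other and well below the lowest control. The means were 209.7 ± 38.5 CPM in the controls and 114 ± 6.37 CPM in the GDNF cultures (SD, n = 4 each), 1.84-fold lower (log2 fold change -0.88, SE 0.15), the largest difference of the 37 with TMM. With the length offset *Cyp51* was further from 0, at -0.97, than *Msmo1*, at -0.76. Without controls 3 and 21 it was -0.84.

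*Nsdhl* (chromosome X, 72918521 to 72958528), the dehydrogenase that works with Msmo1 in removing those methyl groups, was at lower levels. In the controls, *Nsdhl* was at 21.1 CPM in culture 3, 14.8 in culture 7, 19.2 in culture 14 and 25.1 in culture 21, and in the GDNF cultures at 14.1 in culture 6, 13.7 in culture 12, 13.5 in culture 17 and 12.5 in culture 22. The GDNF cultures were tightly grouped just below control culture 7, and the mean was 1.49-fold lower (log2 fold change -0.58, SE 0.18).

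*Sc5d* (chromosome 9, 42251592 to 42264300), the desaturase that introduces a late double bond in the ring, showed a smaller difference. In the controls, *Sc5d* was at 63.5 CPM in culture 3, 56.5 in culture 7, 63.5 in culture 14 and 78.3 in culture 21, and in the GDNF cultures at 46.1 in culture 6, 51.3 in culture 12, 48.9 in culture 17 and 53.4 in culture 22. GDNF culture 22 came within a few CPM of control culture 7, and the mean was 1.31-fold lower (log2 fold change -0.39, SE 0.14).

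**Figure D3:**
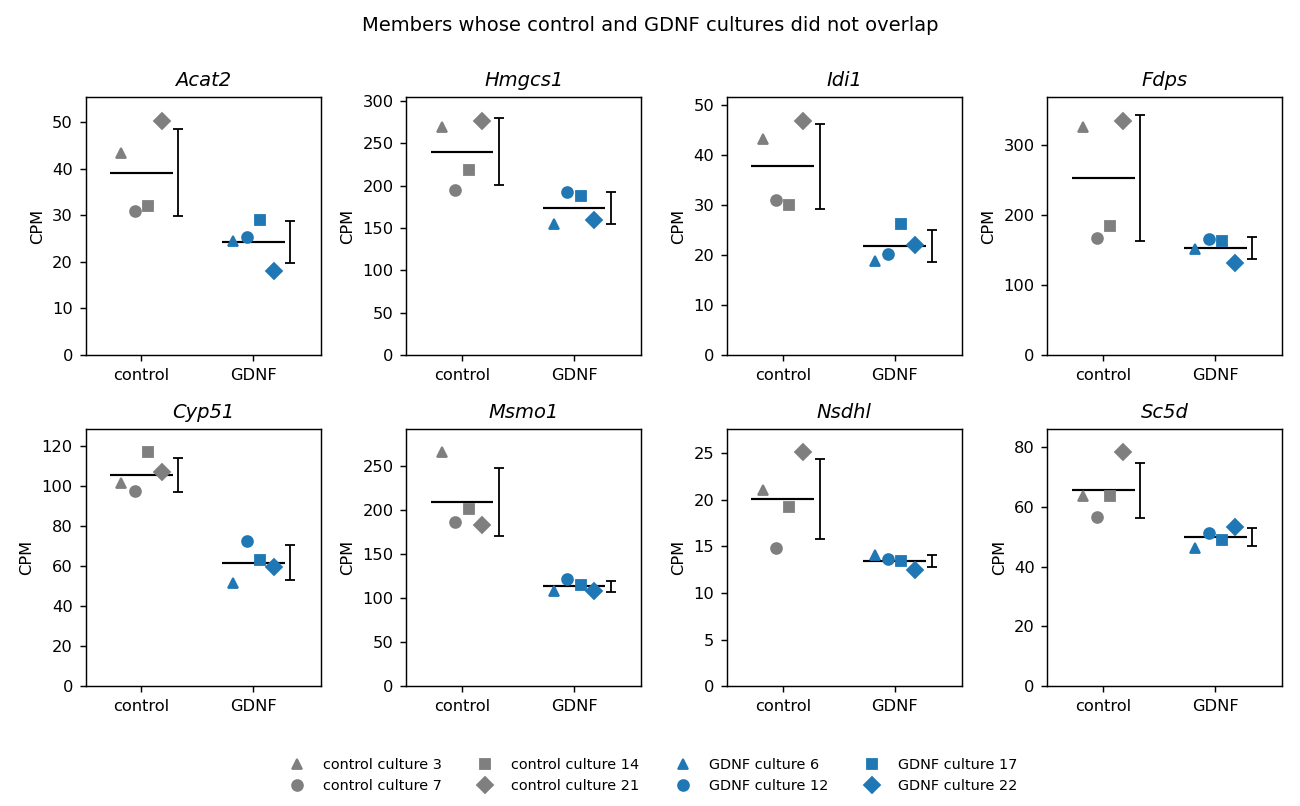
CPM (TMM-scaled, axis from 0) of the 8 members whose groups did not overlap, with 1 symbol per culture, the group mean as a horizontal line and the SD as a bar at its right. In *Fdps*, controls 3 and 21 at 325 and 334.5 CPM stand well above controls 7 and 14, and in *Cyp51* the 4 controls lie together between 97.6 and 117 CPM.

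The remaining 7 genes of this stretch had overlapping groups. *Fdft1*, the squalene synthase, was at -0.69 (SE 0.24) on the log2 scale and resembled *Fdps* in its controls, with 104 and 104.5 CPM in cultures 3 and 21 and 52.8 and 56.3 CPM in cultures 7 and 14. Without controls 3 and 21 it was at -0.21. *Sqle*, the squalene epoxidase, was at -0.30 (SE 0.16). *Lss*, which closes the ring to lanosterol, was at -0.20 (SE 0.24).

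*Ebp*, a sterol isomerase, was at -0.47 (SE 0.21) and *Hsd17b7*, a ketosteroid reductase, at -0.31 (SE 0.26). *Tm7sf2*, a sterol reductase, was at -0.10 (SE 0.23) with TMM and 0.14 with library size only. *Dhcr7* was at 0.0010 (SE 0.19), with 7.38 to 10.7 CPM in the controls and 7.80 to 11.2 CPM in the GDNF cultures. Among the sterol step genes, *Lss*, *Tm7sf2* and *Dhcr7* were the 3 with the smallest differences. *Lss* and *Tm7sf2* were above 0 with library size only, *Tm7sf2* also with the length offset, and *Dhcr7* below 0 with the length offset.

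Scored per culture as the mean log2 difference from the control mean of each gene, the 18 sterol step genes were at 0.18 in control culture 3, -0.26 in culture 7, -0.18 in culture 14 and 0.26 in culture 21. The GDNF cultures were at -0.52 in culture 6, -0.35 in culture 12, -0.43 in culture 17 and -0.59 in culture 22. The groups did not overlap in this score, which was computed in CPM with TMM. The controls fell into a higher pair, cultures 3 and 21, and a lower pair, cultures 7 and 14. Control culture 3 had the smallest TMM factor, 0.790, which raises its score relative to the other cultures. The score was not computed with library size only, so the split and the lack of overlap hold for TMM scaling alone. In 12 of the 18 genes controls 3 and 21 were the highest 2 of the 8 cultures, also with TMM. The SD of the score was 0.26 among controls and 0.11 among GDNF cultures. The median coefficient of variation of the 18 genes was 20.7% in the controls and 13.96% in the GDNF cultures, beside 26.1% and 18.4% over all genes tested.

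Controls 3 and 21 also held the most keratin mRNA. *Krt8* and *Krt18*, simple-epithelium keratins, summed to 2115 CPM in control culture 3 and 2531 in culture 21, against 566 in culture 7 and 228 in culture 14. In the GDNF cultures the sum was 451 to 651 CPM. Over the whole epithelial list, with 6 of 6 genes tested, the sum was 445 to 3319 CPM in the controls and 903 to 1655 CPM in the GDNF cultures. Without the keratins, the sum of this list was highest in GDNF culture 6, at 1004 CPM. It was then 889 and 787 CPM in controls 3 and 21, and 577 and 217 CPM in controls 7 and 14. The proliferation list (6 of 6 tested) summed to 281 to 428 CPM in the controls, where cultures 3 and 21 were again highest at 395 and 428, and to 242 to 304 CPM in the GDNF cultures. Its genes did not all follow the sum. The log2 fold change was below 0 for 5 of the 6 and 0.49 (SE 0.20) for *Mki67*. Control culture 3 was the lowest of all cultures for *Mki67*, at 12.3 CPM. The part of these in the sterol result was not tested. In bulk cultures, fewer cells of a type and less RNA per cell cannot be told apart.

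Without controls 3 and 21, an alternative added after the values were seen, the sterol step median was -0.32, and 12 members were lower and 1 higher without overlap, a condition that fewer samples meet more easily. The share over all tested genes is not given for that setting, so nothing is read from these counts. The number of members lower at the unadjusted p was then 8 in place of 14, and 0 were higher. Cultures also differed in whether *Xist* or Y-linked mRNA was the higher, with 2 of each kind per group. The sterol score differed by -0.39 between groups among the *Xist* cultures and by -0.55 among the others, beside -0.47 over all 8.

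**Figure D4:**
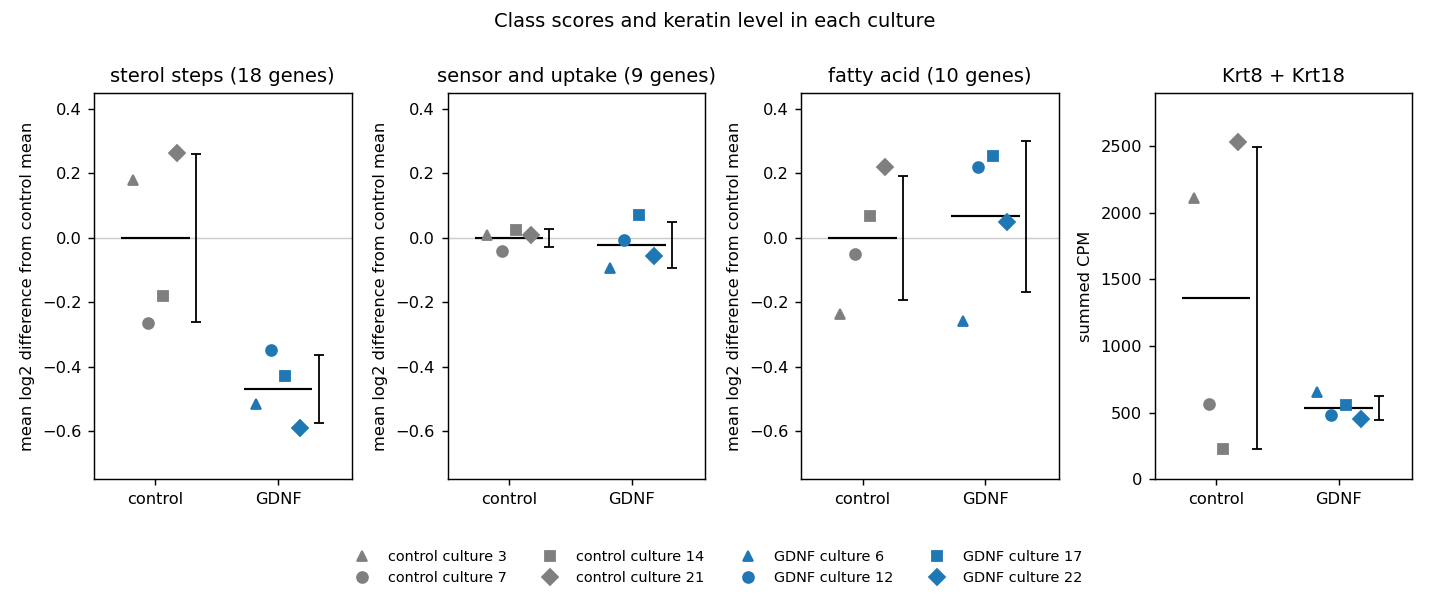
Mean log2 difference from the control mean of each gene, for the 3 classes, and summed CPM of *Krt8* and *Krt18*, with 1 symbol per culture, the group mean as a line and the SD as a bar. All values are TMM-scaled. On that scale the sterol score of the GDNF cultures lies between -0.59 and -0.35, below the lowest control at -0.26. Controls 3 and 21 are highest in both the sterol score and the keratin sum.

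Among the sensors, *Insig2* had the smallest unadjusted p. In the controls, *Insig2* was at 294 CPM in culture 3, 252 in culture 7, 344 in culture 14 and 209 in culture 21, and in the GDNF cultures at 167 in culture 6, 191 in culture 12, 239 in culture 17 and 204 in culture 22. Of the GDNF cultures, only culture 17 exceeded the lowest control, culture 21, and the mean was 1.37-fold lower (log2 fold change -0.46, SE 0.18). *Insig2* was listed under 4 transcripts, the smallest with 89.8% of the count of the largest, and its CPM is the sum over them. *Insig1*, the other Insig gene, was at -0.23 (SE 0.16), with 46.5 to 58.1 CPM in the controls and 34.8 to 52.5 CPM in the GDNF cultures.

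The groups overlapped for both transcription factor genes. *Srebf2* was at 71.2 ± 16.1 CPM in the controls and 70.4 ± 7.34 CPM in the GDNF cultures (SD, n = 4 each), a log2 fold change of -0.02 (SE 0.18), or 0.21 with library size only and -0.23 with the length offset. *Srebf1* was at 40.1 ± 4.86 CPM in the controls and 46.8 ± 6.77 CPM in the GDNF cultures (SD, n = 4 each), a log2 fold change of 0.22 (SE 0.15). That change was 0.04 with the length offset and 0.03 without controls 3 and 21. *Scap* was at 0.32 (SE 0.16) on the log2 scale, with its highest level, 82.9 CPM, in GDNF culture 12. With the length offset it was at 0.14, and without controls 3 and 21 at 0.15. These are mRNA levels, and cleavage of the proteins was not measured.

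In uptake and transport, *Mylip* encodes a ubiquitin ligase that sends lipoprotein receptors to degradation and is a target of the oxysterol-sensing LXR receptors. In the controls, *Mylip* was at 19.0 CPM in culture 3, 26.2 in culture 7, 29.6 in culture 14 and 23.0 in culture 21, and in the GDNF cultures at 34.3 in culture 6, 29.4 in culture 12, 41.2 in culture 17 and 36.0 in culture 22. One GDNF culture, number 12, lay just below control culture 14, and the mean was 1.44-fold higher (log2 fold change 0.53, SE 0.17). *Mylip* was at 0.48 with the length offset and 0.27 without controls 3 and 21. *Npc1* and *Npc2* act together to release cholesterol from lysosomes. *Npc1* was at 0.39 (SE 0.17) and *Npc2* at -0.55 (SE 0.21), with TMM. *Npc1* was at 0.16 with the length offset and 0.17 without controls 3 and 21, and *Npc2* at -0.63 and -0.64. For *Npc2* the controls split differently from the sterol genes, with 189.9 and 197 CPM in cultures 3 and 14 and 122 and 118 CPM in cultures 7 and 21. *Stard4*, a soluble sterol carrier, was at -0.54 (SE 0.28) and followed the sterol split, with 26.4 and 24.7 CPM in controls 3 and 21 and 10.6 to 14.4 CPM in the other 6 cultures. Without controls 3 and 21 its log2 fold change was 0.01. For the 9 sensor and uptake genes together, the class score differed by -0.02 between groups, and the scores of the 8 cultures lay between -0.09 and 0.07.

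The fatty acid genes had no member whose groups were apart. *Me1*, the malic enzyme that supplies NADPH, had the smallest unadjusted p of the class. In the controls, *Me1* was at 206 CPM in culture 3, 104 in culture 7, 93.3 in culture 14 and 149 in culture 21, and in the GDNF cultures at 118 in culture 6, 107 in culture 12, 86.2 in culture 17 and 94.2 in culture 22. Controls 3 and 21 were highest and the other controls lay within the GDNF range, so that the mean was 1.36-fold lower (log2 fold change -0.44, SE 0.24) with all cultures and the log2 fold change -0.02 without those controls.

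The enzymes from citrate to palmitate had higher means in the GDNF cultures. *Acly* was at 403 ± 32.5 CPM in the controls and 460.1 ± 18.8 CPM in the GDNF cultures (SD, n = 4 each), a log2 fold change of 0.19 (SE 0.13) with TMM and -0.0009 with the length offset. *Acaca* was at 0.60 (SE 0.34), with 4.61 to 11.4 CPM in the controls and 7.10 to 17.2 CPM in the GDNF cultures. Its log2 fold change was 0.20 with the length offset and 0.38 without control culture 3, the lowest of the controls. *Fasn* was at 0.25 (SE 0.19) with TMM and -0.18 with the length offset. *Fasn* has the longest transcript of the 37, at 9938 bases.

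*Acss2*, which activates acetate, was at 0.03 (SE 0.21) and *Elovl6*, which elongates palmitate, at 0.02 (SE 0.16). The desaturases that start polyunsaturated fatty acid synthesis, *Fads1* and *Fads2*, were at 0.04 (SE 0.15) and -0.25 (SE 0.20). *Scd2* was at 0.20 (SE 0.20). *Scd1* varied most between cultures of all members, from 11.99 to 40.8 CPM in the controls and from 6.75 to 42.5 CPM in the GDNF cultures, a log2 fold change of 0.06 (SE 0.51). *Scd1* and *Scd2* are close paralogs, and how reads they share were assigned was not given in the sources used here.

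The fatty acid score was lowest in control culture 3 at -0.24 and GDNF culture 6 at -0.26, and between -0.05 and 0.26 in the other 6 cultures. The same cultures had the lowest stromal sum (8 of 8 genes tested, collagens, *Pdgfra*, *Pdgfrb*, *Dcn*, *Lum* and *Acta2*), at 756 CPM in control culture 3 and 627 CPM in GDNF culture 6 against 1624 to 4405 CPM in the others. In control culture 3, *Dcn* and *Lum* did not follow that sum. *Dcn* was at 25.1 CPM there and 20.7 CPM in control culture 7. *Lum* was at 17.4 CPM there and 9.35 to 14.2 CPM in the GDNF cultures. The macrophage sum (4 of 6 genes tested) was highest in control culture 3 and GDNF culture 6, at 25.3 and 24.0 CPM, against 6.78 to 16.5 CPM in the others. Of the 6 adipocyte markers, 3 were tested, and their sum was 79.5 CPM in control culture 14, nearly all of it *Fabp4*, 16.0 CPM in GDNF culture 17 and 1.61 to 6.34 CPM elsewhere. The defining marker *Adipoq* was at or below 0.683 CPM in all 8 cultures. The part of these lists in the fatty acid values was not tested. Within *Xist* cultures the score differed between groups by 0.12, and within the others by 0.0089.

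**Figure D5:**
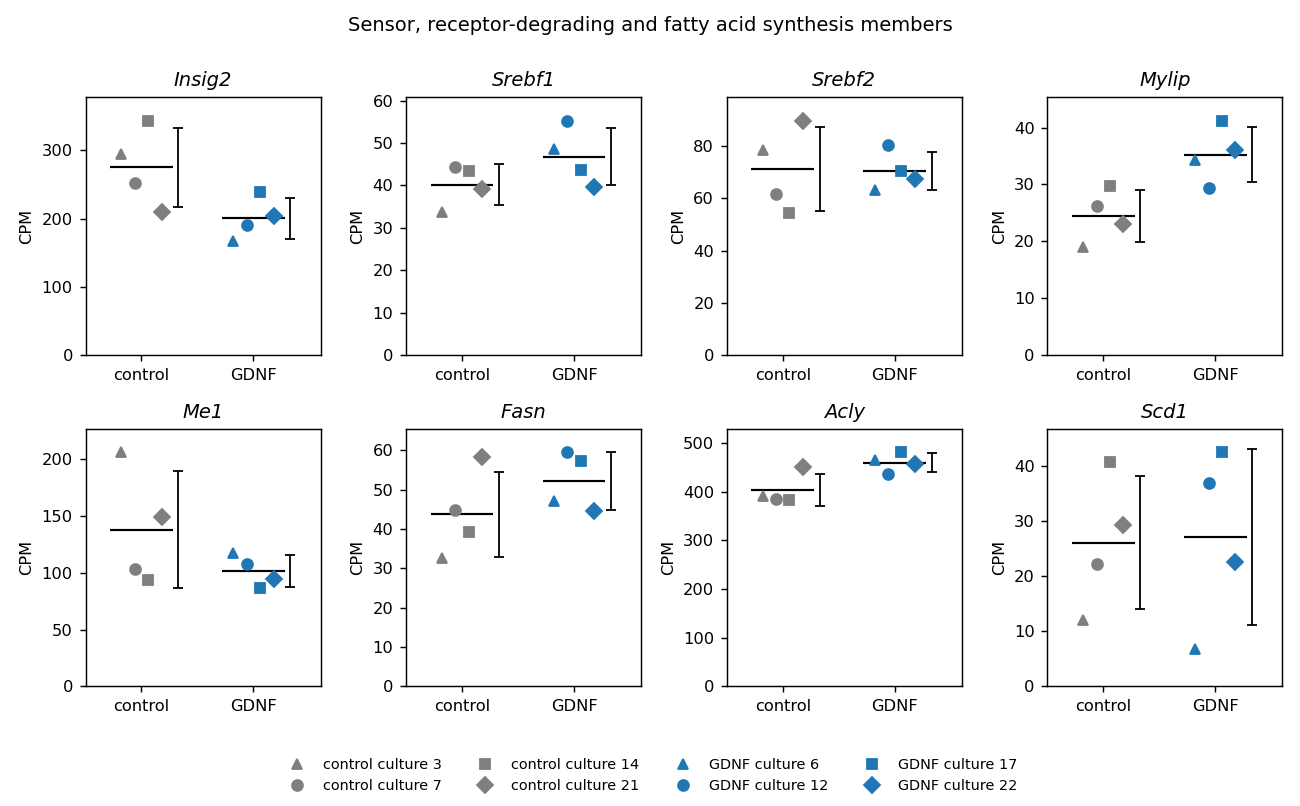
CPM (TMM-scaled, axis from 0) of 8 sensor, uptake and fatty acid members, with 1 symbol per culture, the group mean as a line and the SD as a bar. The groups overlap in every panel, and *Scd1* ranges from 6.75 CPM in GDNF culture 6 to 42.5 CPM in GDNF culture 17.

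Other genes of these pathways were taken from 4 further lists with 60 genes, all of them tested. At an adjusted p of 0.05, 0 passed in edgeR with Benjamini-Hochberg adjustment, and 10 were lower and 4 higher at the unadjusted p, beside 12.9% and 9.25% of all genes tested. DESeq2 called 2, *Pgrmc1* and *Hsd17b12*, both lower. Their groups were apart in 5 genes that were lower and 4 that were higher, beside 6.26% and 6.99% of all genes tested, so these counts are near the background. The median log2 fold change of the 60 was -0.12, or 0.09 with library size only. Among the 8 genes that cleave or degrade the sterol-sensing machinery the median was -0.01, with 0 genes apart. The 13 isoprenoid and sterol genes outside the main steps had a median of -0.15 (0.08 with library size only). The 17 of sterol transport and efflux had 0.12 (-0.09 with the length offset), and the 22 of fatty acid and lipid handling -0.17 (0.05 with library size only).

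In sterol transport, *Stard5*, a lipid carrier related to *Stard4*, was lower. In the controls, *Stard5* was at 42.9 CPM in culture 3, 20.9 in culture 7, 19.1 in culture 14 and 31.8 in culture 21, and in the GDNF cultures at 18.4 in culture 6, 18.6 in culture 12, 17.6 in culture 17 and 17.9 in culture 22. The GDNF cultures lay just under control culture 14, with controls 3 and 21 the highest, and the mean was 1.58-fold lower (log2 fold change -0.66, SE 0.25). *Stard5* was at -0.62 with the length offset and -0.20 without controls 3 and 21. *Lrp8*, a lipoprotein receptor that Mylip also targets, was higher. In the controls, *Lrp8* was at 27.7 CPM in culture 3, 33.4 in culture 7, 22.7 in culture 14 and 37.9 in culture 21, and in the GDNF cultures at 42.0 in culture 6, 53.2 in culture 12, 41.6 in culture 17 and 48.0 in culture 22. All GDNF cultures exceeded the highest control, and the mean was 1.52-fold higher (log2 fold change 0.60, SE 0.18). *Lrp8* was at 0.23 with the length offset and 0.66 without controls 3 and 21.

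In lipid handling, *Hsd17b12*, a reductase in the elongation of very long chains, was lower. In the controls, *Hsd17b12* was at 122 CPM in culture 3, 84.9 in culture 7, 93.4 in culture 14 and 109 in culture 21, and in the GDNF cultures at 74.1 in culture 6, 66.6 in culture 12, 69.7 in culture 17 and 66.4 in culture 22. All 4 GDNF cultures lay below the lowest control, and the mean was 1.48-fold lower (log2 fold change -0.56, SE 0.14). *Mlxipl*, which encodes the carbohydrate response factor ChREBP, was higher at a low level. In the controls, *Mlxipl* was at 0.609 CPM in culture 3, 1.14 in culture 7, 0.598 in culture 14 and 0.940 in culture 21, and in the GDNF cultures at 3.12 in culture 6, 1.97 in culture 12, 1.43 in culture 17 and 1.78 in culture 22. The mean was 2.52-fold higher (log2 fold change 1.33, SE 0.38). DESeq2 gave it no adjusted p.

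Some values rest on reads that other genes could share. In GENCODE M21 exons of *Fdft1* overlap those of the abundant protease gene *Ctsb* on the opposite strand over as much as 774 bases in a single exon, and exons of *Tm7sf2* overlap *Vps51* on the same strand over 532 bases. *Cyp51* overlaps *Akap9* on the opposite strand over 166 bases. Strand use in counting was not given in the sources used here, so the reads of these stretches cannot be assigned. For *Hmgcs1*, *Pmvk*, *Mvd*, *Fdps*, *Scap*, *Acly* and *Me1*, 2 transcripts were listed, with the smaller at 97.7% or more of the larger, and *Insig2* had 4. With a single transcript per gene, 8 members were again lower without overlap.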

How the data were processed

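The authors prepared libraries from poly-A RNA of each culture with the SMART-Seq v4 kit, mapped the reads with STAR and deposited 1 table per culture. The submitters' processing notes name STAR, featureCounts and DESeq2 and the builds mm10 and GRCm38, with versions not given in the sources used here. Per transcript of RefSeq, the table gives raw counts as deposited by the authors. FPKM, also deposited, entered only as the source of transcript lengths. The deposited TPM values, scaled by the authors to a fixed total per culture, served for levels between genes in the controls.

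Counts were summed per gene symbol and fitted in R 4.3.3 with edgeR 4.0.16 (default filterByExpr, TMM factors, glmQLFit and glmQLFTest, 4 against 4 cultures, no covariate, Benjamini-Hochberg over 16557 genes). Standard errors were obtained by dividing the size of each log2 fold change by the root of its F statistic. How reads that fit more than 1 transcript were counted is not given in the sources used here. Transcripts of the same member had near-equal counts, so sums may hold such reads more than once. Alternatives were DESeq2 1.42.0, limma-voom (limma 3.58.1), other normalizations, no filter, one transcript per gene, the kind of culture (*Xist* or Y-linked mRNA) as covariate, a transcript length trend as offset (per-culture splines, 5 degrees of freedom) and each culture left out. Leaving out control cultures 3 and 21 together was chosen after seeing the data. Culture numbers are not shared between the groups, so no pairing was made. The fits were tested on simulated counts. Figures were drawn with Python 3.11.15 and matplotlib 3.10.9.

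The members and the gene lists were chosen with earlier results of these data known. Every member was accounted for. Values in each culture were given for members whose groups did not overlap and for the member with the smallest unadjusted p in each role, and for genes of the other lists that did not overlap and differed by 0.5 or more on the log2 scale. Coordinates are from RefSeq on GRCm38. Depth was similar in all cultures, and p-values measure only the spread between these cultures. Some sterol pathway genes are not reported here.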

Additional observations from a re-analysis of the deposited data

Results flagged for a closer look

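Of 74 groups of 4 cultures tested for a single distant value (37 members in 2 groups), 2 were marked, where chance alone marks about 1 in 20. *Acly* was at 452 CPM in control culture 21, against 383 to 392 CPM in the other controls. *Acss2* was at 9.06 CPM in control culture 14, against 5.75 to 6.14 CPM in the other controls.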

How the results depend on the processing

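No member whose groups were apart changed the sign of its log2 fold change under any of the 18 alternatives. Of 666 comparisons of a member's log2 fold change with an alternative, 641 stayed within 1 SD and 25 moved further, 12 of them with library size only, 6 with the length offset and 7 without control cultures 3 and 21. The number of genes past an adjusted p of 0.05 was 0 in edgeR under every setting and in limma-voom, and 1057 in DESeq2, of which 6 were members. Members lower without overlap numbered 8, and 3 with library size only. Leaving out 1 culture gave 8 to 12. Members higher without overlap numbered 0, but 2 with upper quartile normalization, 4 with library size only, 1 without controls 3 and 21, and 0 to 2 with 1 culture left out (2 without GDNF culture 6 or 12 or control 14, 1 without control 7 or 21). Members lower at an unadjusted p of 0.05 numbered 14, 5 with library size only, 8 without controls 3 and 21, and 8 to 14 with 1 culture left out (8 without control 3, 9 without GDNF culture 22). Members higher at that p numbered 2, 5 with library size only, 1 with RLE or upper quartile normalization, no filter, DESeq2, the kind of culture or the length offset, 0 without controls 3 and 21, and 0 to 3 with 1 culture left out (0 without control 21, 1 without control 3 or 14 or GDNF culture 12, 17 or 22). The sterol step median was -0.48, and -0.25 with library size only. With 1 culture left out it ranged from -0.58 to -0.41. The sensor and uptake median was -0.02, 0.21 with library size only, -0.23 with the length offset, and -0.13 to 0.076 with 1 culture left out. The fatty acid median ranged from -0.02 to 0.18 in the same way, and 28 members were at 10 TPM or more in controls, or 32 with TPM rescaled over one transcript per gene. The causes of these shifts were not tested. Leaving out cultures makes groups easier to separate by construction. Shares of all tested genes without overlap are given for the main setting only, so the counts under other settings have no background beside them. No paired analysis was possible because the groups share no culture numbers.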
